A study of Mus musculus with 16 samples.

Results

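The 9 mouse genes of the P-type calcium pumps were followed across 16 female mice of a cross between CETP and APP transgenic lines. They comprise the pumps of the endoplasmic reticulum (SERCA: Atp2a1, Atp2a2 and Atp2a3), those of the plasma membrane (PMCA: Atp2b1, Atp2b2, Atp2b3 and Atp2b4) and those of the secretory pathway (SPCA: Atp2c1 and Atp2c2). Members were taken by gene symbol, which matched 9 of the 55487 rows of the count table, and all 9 were among the 18609 genes that reached 10 counts in 4 mice or more. The family was chosen on the treatment contrast of these same mice, because Atp2a3 and Atp2c2 are on the study's list for that contrast. Treatment values of the members are therefore given below as descriptions without a test, whereas the genotype comparison and the interaction played no part in the choice and were tested.

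P-type pumps take a phosphate from ATP onto an aspartate of their own in each cycle and use the energy to move ions against a gradient. SERCA pumps return calcium to the endoplasmic reticulum after a release, PMCA pumps expel it from the cell under the control of calmodulin, and SPCA pumps load the Golgi with calcium and manganese. In brain, Atp2a2 is the widespread SERCA gene, the PMCA genes are best known from neurons, and Atp2c1 supplies the Golgi of most cells.

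Bulk brain RNA was sequenced from 4 mice in each of 4 groups, which were vehicle-treated CETPtg, evacetrapib-treated CETPtg, vehicle-treated APPtg/CETPtg and evacetrapib-treated APPtg/CETPtg. All mice carried a CETP transgene, so that the CETPtg mice were not wild type, and no mouse without it was sequenced here. The APPtg/CETPtg mice also carried human APP with the Swedish and Indiana mutations, expressed in neurons from a Thy1 promoter. All were fed 1% cholesterol from 11 weeks of age and received evacetrapib, which inhibits CETP, at 30 mg/kg per day, or vehicle, by intraperitoneal injection for 11 weeks. Gene counts summed to 21391335 to 55453789 in a mouse, and the fewest came from the evacetrapib-treated APPtg/CETPtg mice (21391335 to 25854334). Depth also went with genotype. The CETPtg mice had 28626139 to 46800787 counts, and the vehicle-treated APPtg/CETPtg mice 21866883 to 27398792 except for mouse S8 with 55453789. Each pair of mice in a group differed by more than sampling noise, with a chi-square per degree of freedom of 4.59 to 20.6. Thy1 was higher in the APPtg/CETPtg mice (log2 fold change 0.78, SE 0.153, edgeR adjusted p = 0.00178) without overlap between the genotypes, and mouse App differed by 0.05 (SE 0.053, edgeR adjusted p = 0.574). Neuronal Snap25 lay between 1950 and 2780 CPM (counts scaled by TMM library sizes) and oligodendrocyte Mbp between 1640 and 2540 CPM. The cerebellar granule cell marker Gabra6 was at most 0.145 CPM and was 0 in 9 of the 16 mice. It is 1 of 6 cerebellar markers, which summed to 13.7 to 30.8 CPM, mostly from Car8 and Cbln1. Summed markers of some other regions varied widely between mice: olfactory bulb 20.9 to 205, choroid plexus 14.2 to 467 and hypothalamus 0.387 to 119 CPM. Pituitary markers summed to 848 CPM in mouse E and 20.6 in mouse S2. Striatal markers varied less (953 to 1400 CPM). Whether the dissected pieces differed was not tested. In the labels, the genotypes sit in different columns of the index plate and the treatments in different rows, so that plate position and group cannot be told apart.

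The stretch that carries the phosphorylated aspartate is shown for 7 genes, from all 3 classes, because it is what makes the pumps one family. Each line holds 75 bases of the coding strand from the transcript that GENCODE M21 marks with its top principal tag or, where none has that tag, from the one with the longest coding sequence, 30 bases on either side of the 15 capitals that encode the aspartate and the 4 residues after it.
Atp2a1: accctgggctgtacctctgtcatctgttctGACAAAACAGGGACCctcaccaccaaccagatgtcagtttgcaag
Atp2a3: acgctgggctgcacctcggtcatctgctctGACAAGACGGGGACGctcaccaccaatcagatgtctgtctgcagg
Atp2b1: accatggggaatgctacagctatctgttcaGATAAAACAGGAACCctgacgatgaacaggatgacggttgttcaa
Atp2b2: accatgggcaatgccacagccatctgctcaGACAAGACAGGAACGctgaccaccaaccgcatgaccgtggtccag
Atp2b4: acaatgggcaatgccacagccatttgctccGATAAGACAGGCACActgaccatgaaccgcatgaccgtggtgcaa
Atp2c1: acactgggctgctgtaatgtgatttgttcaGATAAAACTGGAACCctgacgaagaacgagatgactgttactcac
Atp2c2: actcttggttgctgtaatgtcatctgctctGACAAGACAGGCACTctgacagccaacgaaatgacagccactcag

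The capitals begin 30 bases after coding base 1021 in Atp2a1 and Atp2a3, 1393 in Atp2b1, 1465 in Atp2b2, 1366 in Atp2b4, 1117 in Atp2c1 and 1099 in Atp2c2. Of the 75 bases, Atp2b2 and Atp2b4 shared 65, whereas Atp2a3 and Atp2b1 shared 40. Over whole proteins, translated from the same transcripts, identity was 63.5% to 84.5% in the 10 pairs within a class and 30.9% to 38.4% in the 26 pairs between classes. The longest run of bases that the transcripts of a pair had in common was 56, in Atp2b2 and Atp2b3, which is shorter than the 150-nucleotide reads of the study.

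In GRCm38, the SERCA genes are at chr7:126445858-126463108 (Atp2a1, minus strand), chr5:122453513-122502225 (Atp2a2, minus) and chr11:72961169-72993044 (Atp2a3, plus). The PMCA genes are at chr10:98914406-99026143 (Atp2b1, plus), chr6:113743831-114042613 (Atp2b2, minus), chrX:73503086-73571005 (Atp2b3, plus) and chr1:133699457-133801041 (Atp2b4, minus). Atp2c1 lies at chr9:105403539-105527319 on the minus strand and Atp2c2 at chr8:119700009-119757717 on the plus strand. Exons on the opposite strand cover 763 exonic bases of Atp2a1 (Rabep2), 1837 of Atp2c1 (Aste1) and 83 of Atp2a2 (Gm43361). The libraries kept strand, but the strand setting of the counting is not given in the sources used here, so counts of these 3 genes may include their partners.

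Per length, Atp2a2 was the most abundant pump mRNA and the family fell into 6 abundant and 3 scarce members. Levels were set in RPKM, CPM divided by the kilobases of exon of each gene, since CPM alone does not allow genes of different length to be compared. Atp2a2 averaged 160 ± 10.7 RPKM (SD, n = 16), followed by the neuronal pump Atp2b2 at 63.8 ± 8.52 and the broadly expressed Atp2b1 at 47.4 ± 4.35. Atp2b3 averaged 27.2 ± 1.49 RPKM, Atp2b4 23.5 ± 1.54 and Atp2c1 13.9 ± 0.751. The scarce members were Atp2a3, the SERCA gene of vessel lining and blood cells, at 1.71 ± 0.327 RPKM, Atp2c2, the SPCA gene of glands, at 0.447 ± 0.288, and Atp2a1, the fast muscle SERCA gene, at 0.102 ± 0.0857.

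**Figure D1:**
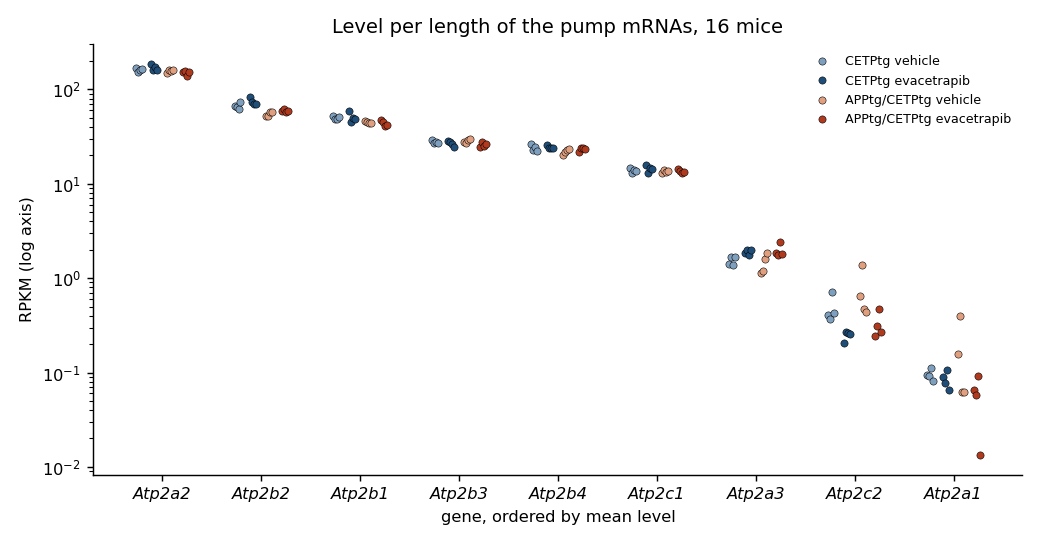
RPKM of each pump gene on a log axis, 1 point per mouse and colours for the 4 groups, ordered by the mean over 16 mice. Atp2a2 stands at 140 to 188 RPKM and Atp2a1 at 0.0133 to 0.402 RPKM, and the spread between mice widens among the 3 scarce genes.

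The order was the same in nearly every mouse: of the 8 pairs of neighbours, 7 had the higher gene above the lower in all 16 mice and Atp2a3 exceeded Atp2c2 in 15. Across mice, however, the ranges of Atp2b2 and Atp2b1, of Atp2b3 and Atp2b4, of Atp2a3 and Atp2c2, and of Atp2c2 and Atp2a1 overlapped. Of the summed RPKM of the family, SERCA genes made 46.7% to 50% and PMCA genes 45.3% to 49.3%, leaving 3.82% to 4.7% to the SPCA genes. Atp2a2 alone supplied 98.2% to 99.1% of the SERCA part. The PMCA part was split among Atp2b2 (35.7% to 43%), Atp2b1 (26.4% to 31.7%), Atp2b3 (14.4% to 19.1%) and Atp2b4 (12.9% to 16.2%). RPKM used the union of annotated exons, and transcripts shorter than that union make the level of a gene too low. The unions of Atp2b1 (15218 bases) and Atp2c1 (9694 bases) exceed their longest transcripts of 7130 and 5642 bases. Per kilobase of the longest transcript, an alternative added after the data were seen, Atp2b1 (101 ± 9.28, SD, n = 16) stood above Atp2b2 (90.7 ± 12.1) in 15 of 16 mice, so that their order turned. Atp2b4 (24.5 ± 1.59) and Atp2c1 (23.8 ± 1.3) came close, with Atp2b4 the higher in 11 of 16 mice. Atp2a2 stayed first at 171 ± 11.4, and the PMCA genes then made 52.9% to 56.9% of the family and the SERCA genes 37.9% to 41.2%.

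Genotype was compared to ask whether the APP transgene goes with other pump mRNA levels. Atp2b2, the PMCA gene with the fastest calcium clearance of its class, was lower in APPtg/CETPtg than in CETPtg mice, and Atp2b1 was lower by less. Of the 9 members, these 2 passed the test (edgeR quasi-likelihood, adjusted p not above 0.05 and a change of 5% or more), beside 17.7% of all genes tested. The median log2 fold change of the members was -0.05 and that of all genes 0.005.

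Atp2b2 stood at 842, 822, 792 and 921 CPM in the vehicle-treated CETPtg mice and at 1060, 920, 891 and 874 CPM in the evacetrapib-treated ones. In APPtg/CETPtg mice it was 661, 668, 726 and 719 CPM with vehicle and 741, 773, 723 and 749 CPM with evacetrapib. Every APPtg/CETPtg mouse was thus below every CETPtg mouse, a separation found for 2.93% of all genes tested. The log2 fold change was -0.30 (SE 0.041, 95% interval -0.39 to -0.22, edgeR adjusted p = 8.17e-05), from a mean of 890 to 720 CPM, and Atp2b2 ranked 87 of 18609 genes by p. Leaving out any 1 mouse kept it between -0.32 and -0.27, with adjusted p of 8.61e-05 to 0.000229 in edgeR. In bulk tissue, fewer cells that express a gene and less RNA per cell cannot be told apart.

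**Figure D2:**
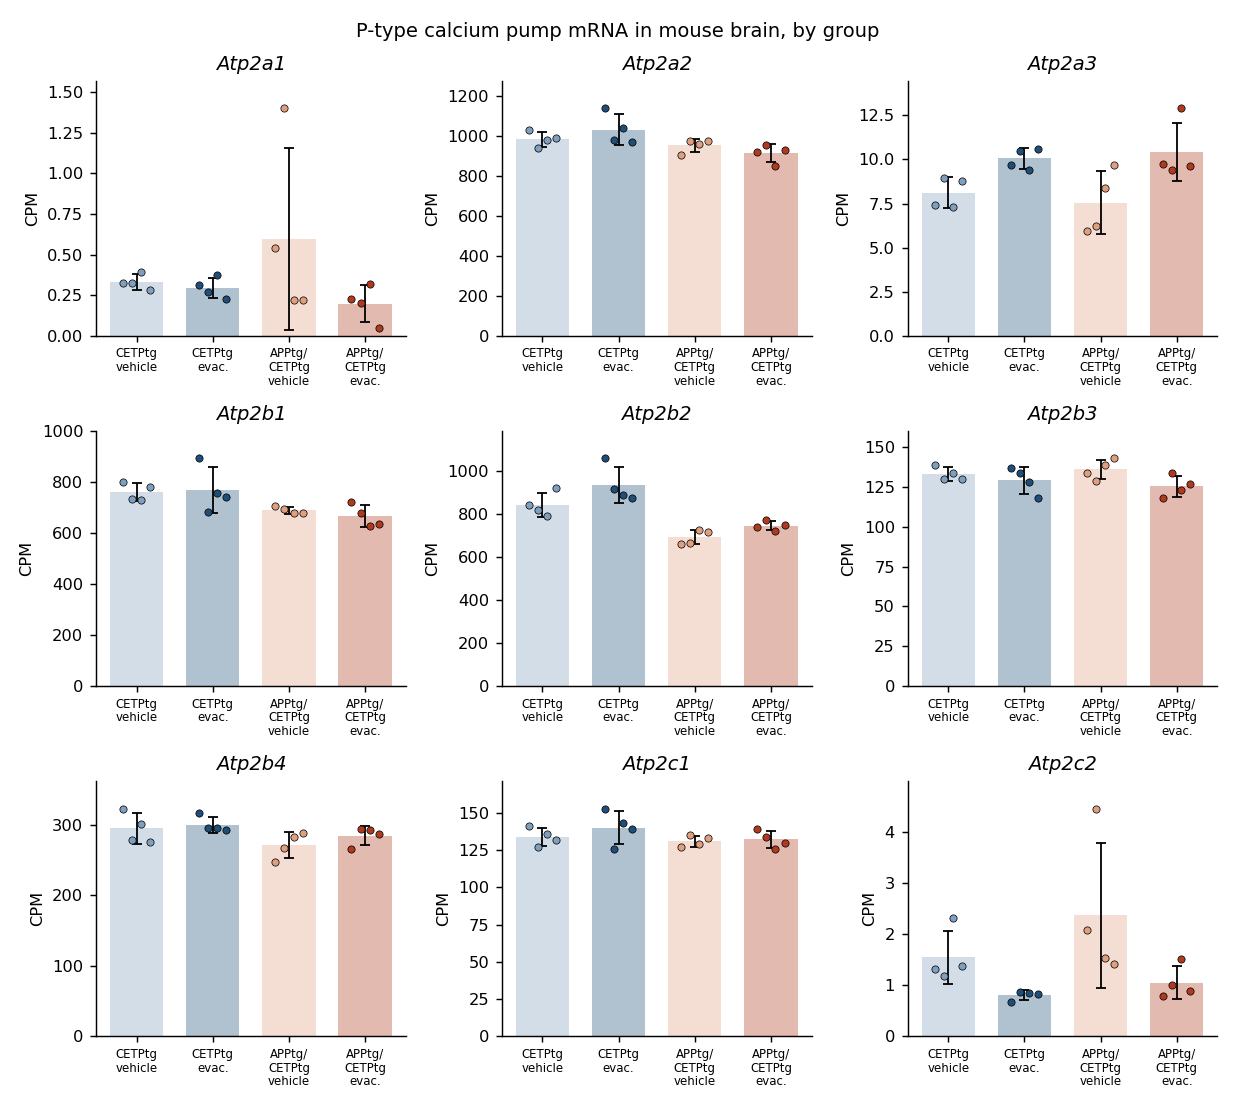
CPM of the 9 pump genes in each mouse (points), with the group mean (bar) and SD (error bar) of 4 mice, on axes that start at 0. Atp2b2 is lower in all 8 APPtg/CETPtg mice, while Atp2c2 and Atp2a1 are set apart by single mice, which reach 4.46 and 1.4 CPM.

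The difference in Atp2b2 was present under both treatments. With vehicle the log2 fold change was -0.29 (SE 0.058, edgeR adjusted p = 0.00554) and with evacetrapib -0.31 (SE 0.058, edgeR adjusted p = 0.00979). Atp2b2 was the 1 member of 9 called in each, against 10.4% of all genes under vehicle and 2.99% under evacetrapib. With the Wald test of DESeq2, 1 member was called under vehicle and 3 under evacetrapib, where DESeq2 called 12.9% and 6.1% of all genes.

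Atp2b1, a housekeeping PMCA gene, measured 801, 735, 732 and 782 CPM in vehicle-treated and 894, 683, 759 and 742 CPM in evacetrapib-treated CETPtg mice. The APPtg/CETPtg mice had 708, 695, 679 and 678 CPM with vehicle and 721, 681, 627 and 636 CPM with evacetrapib. The genotypes did not overlap under vehicle but did under evacetrapib, where the CETPtg mouse at 683 CPM lay among the APPtg/CETPtg mice. Of all genes tested, 17% did not overlap under vehicle. Over all mice the log2 fold change was -0.17 (SE 0.045, edgeR adjusted p = 0.0122), and it was called in each of the 16 fits that left out a mouse. Within a treatment it was -0.15 (edgeR adjusted p = 0.158) and -0.20 (edgeR adjusted p = 0.101).

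The differences of Atp2b1 and, by less, of Atp2b2 shrank when trends in transcript length and GC content were removed. These trends separated the genotypes throughout the transcriptome, so that trend and genotype cannot be told apart. The trends were fitted together, so the parts of length and GC content cannot be told apart. The median log2 fold change between genotypes ran from 0.105 in the quintile of genes with the shortest transcripts (up to 1588 bases) to -0.087 in the quintile with the longest (from 4955 bases). Across 18583 genes, which are not independent replicates, Spearman's rho was -0.37 with length and 0.38 with GC content, against 0.04 and 0.03 for the treatment comparison. In a joint fit of length and GC content, long transcripts stood above short ones in every CETPtg mouse, relative to the other mice (fitted log2 difference 0.028 to 0.136). In every APPtg/CETPtg mouse long transcripts stood below short ones (-0.149 to -0.024).

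**Figure D3:**
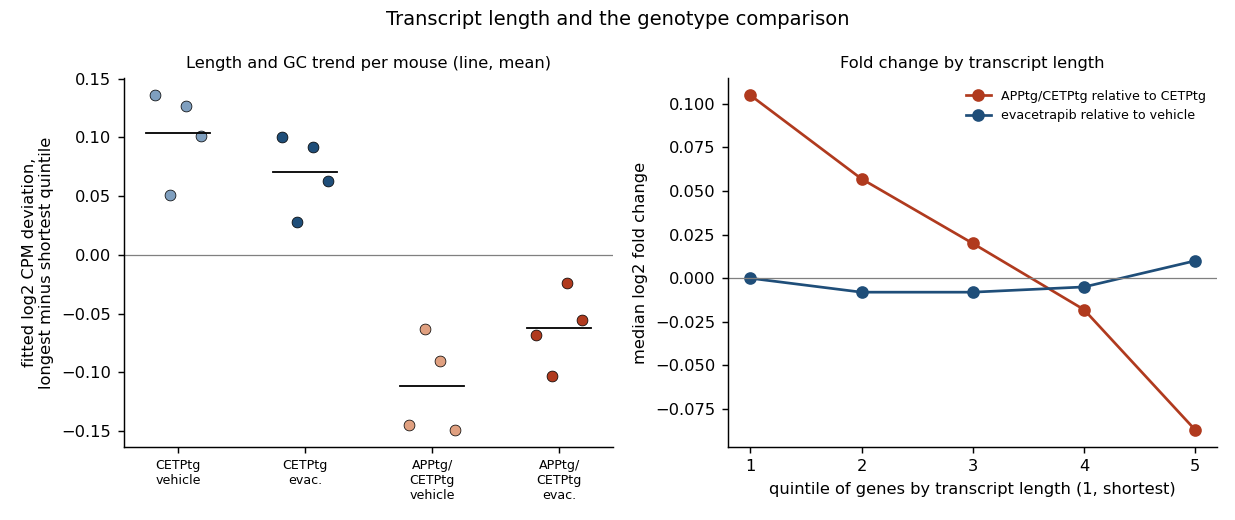
Left, log2 CPM deviation fitted on length and GC content together, for the quintile of genes with the longest transcripts minus that of the shortest, 1 point per mouse and a line at the mean of 4. Right, median log2 fold change in each quintile by transcript length, which falls from 0.105 to -0.087 between genotypes and stays between -0.008 and 0.01 between treatments.

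Atp2a2, Atp2b1, Atp2b2, Atp2b4 and Atp2c1 belong to the quintile with the longest transcripts, of 5642 to 11725 bases, in which 27.3% of the genes were called lower. Among those 3717 genes, 211 had a lower log2 fold change than Atp2b2 and 901 a lower one than Atp2b1. With the trends of each mouse with length and GC content removed, an alternative added after the data were seen, Atp2b2 remained at -0.25 (edgeR adjusted p = 0.00193) and Atp2b1 moved to -0.04 (edgeR adjusted p = 0.611). That fit called 1 member of 9 and 6.59% of all genes. Atp2b2 was then -0.28 under evacetrapib (edgeR adjusted p = 0.0322) and -0.21 under vehicle (edgeR adjusted p = 0.0729), so the call under vehicle was lost, in fits that called 0.662% and 2.2% of all genes. Atp2b4 turned from -0.09 to 0.03 and Atp2c1 from -0.05 to 0.07, neither past the threshold in either fit. What sets the trend was not tested.

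**Figure D4:**
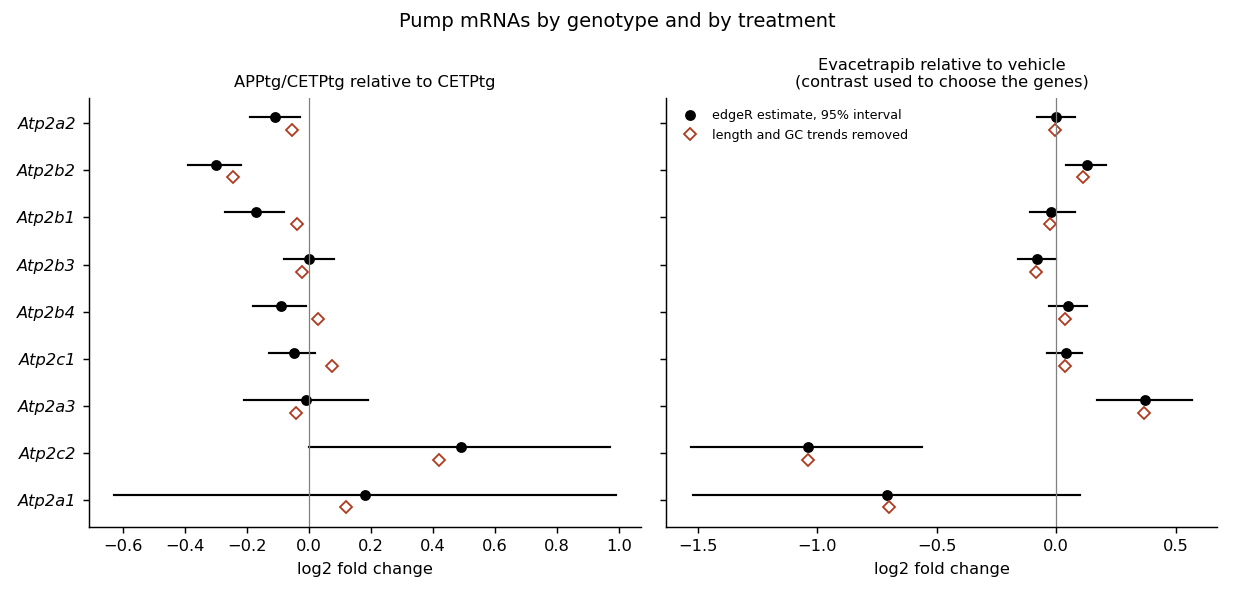
Log2 fold change of each pump gene between genotypes (left) and between treatments (right), with edgeR estimates and 95% intervals (black) and estimates after removal of the length and GC trends (open diamonds). Atp2b2 stays below 0 between genotypes at -0.30 and -0.25, whereas Atp2b1 moves from -0.17 to -0.04. The right panel shows the contrast on which the family was chosen and carries no test. Its intervals are descriptive. Whether they exclude 0 cannot be read as a test, least of all for Atp2a3 and Atp2c2, on which the choice rested.

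Other members did not pass the test between genotypes, though the intervals of the scarce ones are wide. Atp2a2 differed by -0.11 (SE 0.039, edgeR adjusted p = 0.0624), a mean of 935 against 1010 CPM. It passed the threshold in DESeq2 (adjusted p = 0.0294, with 19.8% of all genes called) and in edgeR without mouse D (0.0397), S2 (0.0344), S6 (0.0318) or S7 (0.0472), or with 10 counts required in every mouse (0.0499), and it was -0.05 with the length and GC trends removed (edgeR adjusted p = 0.421). Atp2b4, the main PMCA gene of red blood cells, gave -0.09 (95% interval -0.18 to -0.01, edgeR adjusted p = 0.104), and the Golgi pump gene Atp2c1 -0.05 (-0.13 to 0.02). The neuronal gene Atp2b3 gave 0.00 (-0.08 to 0.08) and Atp2a3 -0.01 (-0.21 to 0.19). Atp2c2 was 0.49 (0.00 to 0.97, edgeR adjusted p = 0.16) and 0.22 without mouse S6, and Atp2a1 0.18 (-0.63 to 0.99) and -0.35 without that mouse.

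Markers of cell types and regions gave the following levels beside these differences. Summed CPM of 6 neuronal markers was 6290 to 7270 in the CETPtg mice against 6130 to 7330 with the APP transgene, and that of 5 cortical markers 377 to 537 and 367 to 472. The sums of other lists stood lower in APPtg/CETPtg mice in part: hippocampus (35.7 to 41.4 against 25.9 to 37.3), oligodendrocytes (3750 to 4660 against 2940 to 4110), their precursors (76.9 to 91.9 against 70.2 to 89.9) and astrocytes (736 to 789 against 600 to 818). Such sums follow the most abundant markers of a list, and single markers did not share the difference. Among them were Aldh1l1 of astrocytes (62.9 to 78.5 against 68.1 to 79.2 CPM), Neu4 of precursors (8.12 to 9.77 against 7.2 to 11.4) and Spink8 of hippocampus (0.357 to 0.888 against 0.185 to 0.948). All markers of these 6 lists were above 0 in every mouse. Their part in the pump differences was not tested beyond the correlations below.

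The interaction asks whether evacetrapib went with a different change in the 2 genotypes. None of the 9 members was called by edgeR, DESeq2 or limma-voom, 0 had an unadjusted p under 0.05 in any of the 3, and 0% of all genes tested were called by edgeR. Over all genes, 1271 had an unadjusted p under 0.05 in edgeR, limma-voom called 0 and DESeq2 2. The estimates for the 6 abundant members lay between -0.12 and 0.06 on the log2 scale, with 95% intervals that reached from -0.27 to 0.22. For Atp2a3 the interval was -0.26 to 0.54, for Atp2c2 -1.17 to 0.84 and for Atp2a1 -2.84 to 0.40 on counts as low as 1 per mouse.

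The treatment contrast is described next, with no test, since it served to choose the family. Atp2a3 was higher and Atp2c2 lower with evacetrapib, while the abundant members differed little. Of all genes tested, 2 were called between treatments by edgeR, which is 0.0107%, and 57 by DESeq2, which is 0.306%.

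Atp2a3 measured 7.40, 8.93, 7.29 and 8.79 CPM in CETPtg mice with vehicle and 9.70, 10.5, 9.42 and 10.6 CPM with evacetrapib. In APPtg/CETPtg mice it was 5.96, 6.22, 8.36 and 9.69 CPM with vehicle and 9.76, 9.39, 12.9 and 9.61 CPM with evacetrapib. The CETPtg groups did not overlap, and the APPtg/CETPtg groups overlapped by mouse S8 alone, whose 9.69 CPM exceeded 2 of the 4 evacetrapib values. Of all genes tested, 4.04% did not overlap between treatments in CETPtg mice, and Atp2a3 was chosen on this contrast. The log2 difference over all mice was 0.37 (SE 0.095), 0.31 among CETPtg and 0.44 among APPtg/CETPtg mice, on 132 to 534 counts per mouse.

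Vascular markers had the following levels beside Atp2a3, a gene known from endothelium. Of these markers, 3 of 4 for smooth muscle and 4 of 6 for endothelium are, like Atp2a3, on the study's list for this contrast, so that their joint difference was fixed by that choice. The summed CPM of 4 smooth muscle markers was 18.7 to 22.7 with vehicle and 24.9 to 32.8 with evacetrapib in CETPtg mice, and 17.3 to 24.4 and 26.6 to 32.6 in APPtg/CETPtg mice. For 6 endothelial markers it was 135 to 167 and 162 to 197 in CETPtg mice and 117 to 164 and 166 to 203 in APPtg/CETPtg mice. For 4 pericyte markers it was 153 to 177 and 170 to 183 in CETPtg mice and 134 to 176 and 176 to 198 in APPtg/CETPtg mice. Every marker of these lists was above 0 in all mice. Platelet markers, another source of Atp2a3, summed to 2.52 to 3.87 CPM in CETPtg mice and to 2.84 to 3.70 with vehicle and 3.47 to 4.85 with evacetrapib in APPtg/CETPtg mice. Their part in the treatment difference of Atp2a3 was not tested, and correlations with these lists within groups follow below.

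Atp2c2, which was chosen on the same contrast, measured 1.31, 1.18, 2.31 and 1.37 CPM in CETPtg mice with vehicle and 0.669, 0.866, 0.851 and 0.825 CPM with evacetrapib. In APPtg/CETPtg mice it was 2.08, 4.46, 1.53 and 1.42 CPM with vehicle and 0.788, 1.01, 1.51 and 0.878 CPM with evacetrapib. The CETPtg groups did not overlap, as for 4.04% of all genes. In APPtg/CETPtg mice they overlapped because mouse G, at 1.51 CPM with evacetrapib, exceeded the vehicle mouse at 1.42. The log2 difference over all mice was -1.04 (SE 0.233), -0.96 among CETPtg and -1.13 among APPtg/CETPtg mice, and -0.82 without mouse S6. These values rest on 19 to 99 counts per mouse. Atp2c2 is known from glandular epithelium, whose list of markers summed to 2.15 to 3.71 CPM with vehicle and 2.67 to 3.46 with evacetrapib in CETPtg mice and to 1.67 to 4.52 and 1.89 to 6.12 in APPtg/CETPtg mice, with 1 of its 5 markers above 0 in every mouse.

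Atp2a1 had 1 to 31 counts per mouse. It was 0.281 to 0.395 CPM with vehicle and 0.228 to 0.372 with evacetrapib in CETPtg mice, and 0.218 to 1.40 and 0.0462 to 0.321 in APPtg/CETPtg mice. The log2 difference of -0.71 (SE 0.39) became -0.32 without mouse S6, in which Atp2a1 had 31 counts. The same mouse had the most Atp2c2, with 99 counts. Summed skeletal muscle markers, of which 5 of 7 were above 0 in every mouse, were 12.5 CPM in mouse S6, the lowest of its group (12.5 to 18.9), and 12.3 to 16.1 CPM in the other 3 groups.

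Among the abundant members, Atp2b2 was 841 CPM with evacetrapib and 769 with vehicle (log2 difference 0.13, SE 0.041), and Atp2b3 127 and 135 CPM (-0.08, SE 0.036). Atp2a2, Atp2b1, Atp2b4 and Atp2c1 differed by -0.02 to 0.05. In all 6 the treatments overlapped over all mice and in each genotype.

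Variation among mice of a group was small for the abundant pumps and large for the scarce ones. The residual SD of log2 CPM was 0.074 to 0.1 in the 6 abundant members, 0.217 in Atp2a3, 0.473 in Atp2c2 and 0.705 in Atp2a1. Deviations from the group means, over 16 mice that share 4 group means, correlated most between Atp2b1 and Atp2c1 (Pearson's r 0.84), Atp2a2 and Atp2c1 (0.80), Atp2a1 and Atp2c2 (0.78) and Atp2a2 and Atp2b1 (0.71). The value for Atp2a1 and Atp2c2 rests on few counts, and mouse S6 had the most of both. Atp2b2 and Atp2c2 had the lowest value, -0.50. These are descriptions, since the genes of a mouse share its library and its length and GC trends.

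By the same measure, 14986 genes with a mean of at least 1 CPM were ranked for their likeness to each member. Nearest to Atp2b2 were Lrrc4 (r 0.99), Lrrc8b (0.96) and Proser2 (0.91), and nearest to Atp2b1 were Ccng1 (0.93), Fnip1 (0.91) and Gm4204 (0.90). Atp2b3 was most like Cyfip2 (0.92), Scn2b (0.90) and Ccdc65 (0.89), and Atp2b4 most like Cadm1 (0.94), Astn1 (0.89) and Sez6l (0.88). Atp2a2 had Lgi1 (0.97), Ralgapb (0.94) and Zc3h12b (0.93), Atp2c1 had Fbxo11 (0.97), Psd3 (0.95) and Sbno1 (0.95). Among the scarce members, Atp2a3 had Pdgfrb (0.90), a pericyte receptor gene, Lhfpl2 (0.88) and Pbxip1 (0.87). Atp2c2 had Per2 (0.90), a gene of the circadian clock, Pisd (0.89) and Zfp142 (0.88), and Atp2a1 had Rbm15 (0.91), Crybg2 (0.88) and Me3 (0.87). The ranking carries no test.

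Each member was also compared with 23 marker lists of cell types and regions, in 207 pairs, by exact permutation of mice within groups (331776 permutations, two-sided). None passed after Benjamini-Hochberg adjustment, and 18 had an unadjusted p under 0.05. The smallest was Atp2a2 with cortical markers (r 0.82, exact permutation p = 0.000326, adjusted 0.0674, Spearman's rho 0.75 with p = 0.00279), with r 0.74 when the 2 mice farthest from the median were left out. Next came Atp2b2 with the same list (r 0.70, exact permutation p = 0.00265, adjusted 0.247, rho 0.64 with p = 0.00676, and 0.51 without the 2 farthest mice). Atp2b1 had an unadjusted p under 0.05 with choroid plexus (r -0.53, exact permutation p = 0.00431) and hypothalamus (-0.51, exact permutation p = 0.00477). Its others were hippocampus (-0.57, exact permutation p = 0.01), cortex (0.68, exact permutation p = 0.0399) and neurons (0.36, exact permutation p = 0.0492), all adjusted to 0.247 to 0.559. Atp2b3 went with olfactory bulb (-0.70, exact permutation p = 0.00759, adjusted 0.28). For Atp2a3, 4 of the 23 lists had an unadjusted p under 0.05. They were microglia (r 0.66, exact permutation p = 0.0164, adjusted 0.377, rho 0.49 with p = 0.113, and 0.36 without the 2 farthest mice), pericytes (r 0.68, exact permutation p = 0.0384, adjusted 0.517, rho 0.65 with p = 0.0236, and 0.45), astrocytes (r 0.66, exact permutation p = 0.0395, adjusted 0.517, rho 0.47 with p = 0.143, and 0.23) and red blood cells (r 0.52, exact permutation p = 0.0397, adjusted 0.517, rho 0.62 with p = 0.0136, and 0.60). Endothelial cells (r 0.57, exact permutation p = 0.0818, adjusted 0.559), smooth muscle (0.49, p = 0.124, adjusted 0.689) and platelets (0.13, p = 0.725, adjusted 0.89) did not reach that level.

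Genes that act beside the pumps were taken from 10 lists of calcium handling, 76 of whose 82 genes passed the count filter. Between genotypes, 15 of the 76 were called by edgeR, 4 higher and 11 lower in APPtg/CETPtg mice, and their median log2 fold change was -0.04 against 0.005 over all genes. That is 19.7% of the 76 beside 17.7% of all genes tested, of which 9.35% were called higher and 8.38% lower. Voltage-gated channel subunits, which admit calcium, held 6 of them, all lower, among 18 tested. Of these 18, 15 have transcripts in the longest quintile, where 27.3% of all genes were called lower. The P/Q-type channel gene Cacna1a went from 188 ± 5.24 and 205 ± 8.28 CPM in vehicle- and evacetrapib-treated CETPtg mice to 171 ± 9.39 and 177 ± 5.93 in APPtg/CETPtg mice (SD, n = 4, log2 fold change -0.17, edgeR adjusted p = 0.00106). The R-type gene Cacna1e fell by 0.19 on the log2 scale, the T-type gene Cacna1i by 0.22, the beta subunit gene Cacnb4 by 0.23 and Cacna2d1, for an auxiliary subunit, by 0.21.

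**Figure D5:**
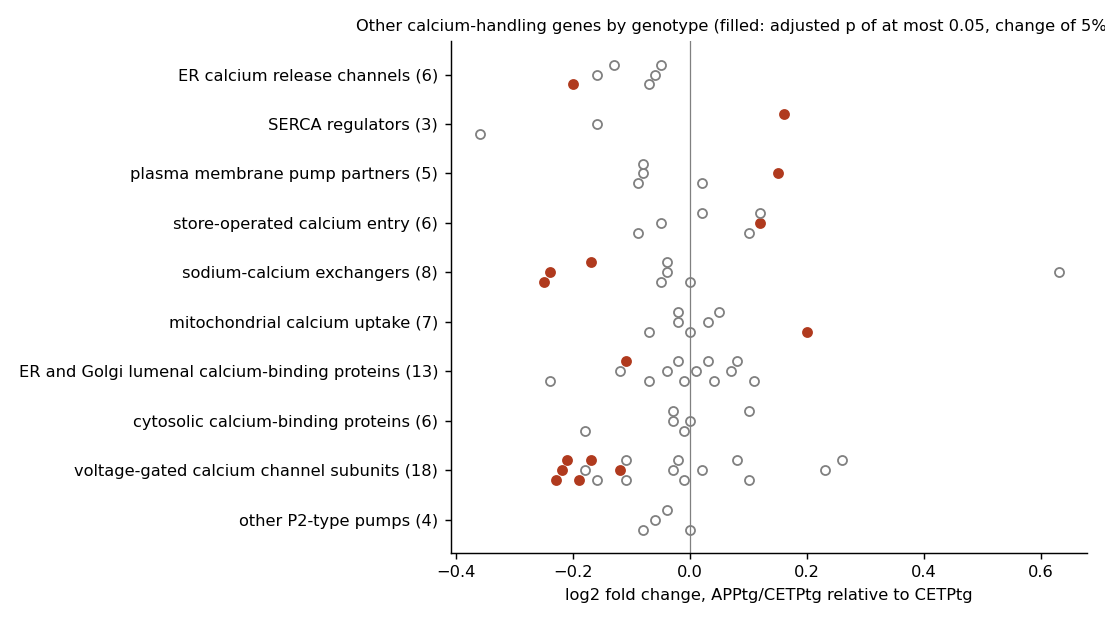
Log2 fold change between genotypes for 76 genes of 10 calcium-handling lists, 1 circle per gene, the number tested in parentheses and circles staggered vertically only for legibility. Filled circles passed the test, of which 11 lie below 0 and 4 above.

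Of 8 sodium-calcium exchanger genes, some of which clear calcium in parallel with PMCA pumps, 3 were called lower. That is 37.5%, beside 8.38% of all genes tested and 27.3% of those in the longest quintile. Of the 8, 3 have transcripts in that quintile, among them 2 of the called genes. The called genes were Slc24a2, which lost 0.24 on the log2 scale to means of 516 and 471 CPM (edgeR adjusted p = 0.00338), and Slc8a1 (-0.25) and Slc8a3 (-0.17), which were named after their values were seen. The release channel gene Itpr2 was lower at -0.20, as 1 of 6 in its list, all 6 of them in the longest quintile. Genes called higher were Smdt1, a part of the mitochondrial uniporter (0.20), S100a1, a SERCA regulator (0.16), Saraf, which restrains store-operated entry (0.12), and Bsg, a partner of PMCA pumps (0.15, named after its value was seen). None of the 6 cytosolic calcium-binding genes was called (edgeR), with 0 under an unadjusted p of 0.05.

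The length and GC trends touched these genes as well. With length and GC trends removed, 2 of the 15 were still called, Cacna1a (-0.14, edgeR adjusted p = 0.0188) and Cacna1i (-0.18, edgeR adjusted p = 0.0153). That fit called 5.26% of the 76 genes, beside 6.59% of all genes. Micu3, of the mitochondrial uniporter, passed in that fit alone (0.10, edgeR adjusted p = 0.039) and was named after its value was seen. Cacna1e (-0.06), Cacnb4 (-0.05), Cacna2d1 (-0.04), Slc24a2 (-0.09), Itpr2 (-0.10), Smdt1 (0.07), Saraf (0.08) and S100a1 (0.02) did not pass in that fit.

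Within treatments, 9 of the 76 genes (11.8%, beside 10.4% of all genes) were called under vehicle, led by Cacna1e (-0.26, edgeR adjusted p = 0.00519), and 2 (2.63%, beside 2.99%) under evacetrapib, Slc24a2 (-0.36, edgeR adjusted p = 0.00979) and Cacna1a (-0.20, edgeR adjusted p = 0.0197). With length and GC trends removed none of these 3 calls was left (edgeR adjusted p = 0.285, 0.086 and 0.0705). Under vehicle 1 gene was then called, Calb1 (0.25, edgeR adjusted p = 0.0279, named after its value was seen). That is 1.32% of the 76, beside 2.2% of all genes. Under evacetrapib 0 were called, beside 0.662% of all genes. For the interaction, 0 of 76 were called by edgeR, DESeq2 or limma-voom, with 10, 10 and 11 under an unadjusted p of 0.05. Between treatments also 0 of 76 were called by any of the 3 tools, and 8 had an unadjusted p under 0.05 in each. The smallest p belonged to Slc24a4, an exchanger gene (log2 fold change -0.26, SE 0.074, edgeR adjusted p = 0.317), Casq2, a calcium store protein gene (0.34, SE 0.101, edgeR adjusted p = 0.359), and Cacna1a (0.09, SE 0.031, edgeR adjusted p = 0.453).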

How the data were processed

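Bulk brain RNA of 16 mice was measured. The authors selected poly(A) RNA, made directional libraries, trimmed reads with Trimmomatic 0.39, aligned them to mm10 with STAR 2.7.8a and counted them on genes with HTSeq, according to the paper and the submitters' processing notes. The count table was deposited without normalization. The annotation used for counting is not given in the sources used here. Of 55487 gene identifiers, 55227 are in GENCODE M21, which gave positions and lengths. Some sequences and 1 gene are not reported here. The members and gene lists were chosen with earlier results of these data known.

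Genes that reached 10 counts in 4 mice or more were tested by the quasi-likelihood test of edgeR 4.0.16 (R 4.3.3) with TMM and Benjamini-Hochberg adjustment. Genotype and treatment over all mice came from a model with both terms, and comparisons within a treatment and the interaction from a model of 4 group means. Called genes had an adjusted p not above 0.05 and changed by 5% or more, as in the study. The SE is the log2 fold change divided by the root of F. Log2 CPM used a prior count of 2. Named genes were all 9 members, per comparison up to 10 called calcium-handling genes and the 3 with the smallest p, and the 3 genes most like each member. Total counts of 21391335 to 55453789 leave Atp2a1 and Atp2c2 at few counts. Alternatives were DESeq2 1.42.0, limma-voom (limma 3.58.1), other scalings, filters and thresholds, single terms, 8 mice alone and each mouse left out. Per-mouse trends with length and GC content, which 99.9% of tested genes have, a block and RPKM on the longest transcript were added after seeing the data. In simulated genotype changes over 18609 genes, edgeR recovered, on adjusted p alone, 38.8% of 67 genes at 1.2-fold and 89.4% of 66 at 2-fold. Far fewer genes were changed there than the 3299 called between genotypes in the data, so these rates need not hold for the real comparison.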

Additional observations from a re-analysis of the deposited data

Results flagged for a closer look

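Of 36 sets of 4 mice (9 members in 4 groups), 3 held a mouse far from its group by Dixon's test at the 95% level, where chance alone gives about 1 in 20. Atp2a3 was 12.9 CPM in mouse G of the evacetrapib-treated APPtg/CETPtg group, against 9.39 to 9.76 in the other 3. Atp2b4 was 317 CPM in mouse A of the evacetrapib-treated CETPtg group, against 293 to 296. Atp2c2 was 2.31 CPM in mouse S3 of the vehicle-treated CETPtg group, against 1.18 to 1.37. Without mouse G the treatment difference of Atp2a3 was 0.32 on the log2 scale, and without S3 that of Atp2c2 was -0.93.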

How the results depend on the processing

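Of the members' log2 fold changes, Atp2b2 between genotypes was called in each of its 26 alternatives (-0.32 to -0.25), and Atp2b1 in 25, the exception being the removal of the length and GC trends (-0.04). The direction turned for differences near 0 or on few counts. Between genotypes it turned for Atp2a1 (-0.159) and Atp2a3 (0.007) with limma-voom, for Atp2b3 without a treatment term (0) and with the replicate block (0), and for Atp2b4 (0.028) and Atp2c1 (0.074) with the trends removed, and for the interaction for Atp2c2 (0.021) with limma-voom. With 1 mouse left out, the genotype difference ranged from -0.35 to 0.364 for Atp2a1, -0.079 to 0.033 for Atp2a3 and -0.024 to 0.013 for Atp2b3. The interaction then ranged from -0.103 to 0.023 for Atp2b1, -0.07 to 0.028 for Atp2b2, -0.083 to 0.003 for Atp2c1 and -0.441 to 0.321 for Atp2c2. The treatment differences (233 values) and CPM levels (72 values) moved by less than the spread between mice. Over all genes, the genotype count of 3299 was 1225 with the trends removed, 1934 under vehicle became 408, and 556 under evacetrapib became 123. The Wald test of DESeq2 called 1135 genes under evacetrapib, 2 in the interaction and 57 between treatments, and without a filter on low counts 29 genes were called in the interaction and 35 between treatments. At an adjusted p of 0.1 there were 3007 under vehicle and 1260 under evacetrapib, in the 8 evacetrapib-treated mice alone 327 in place of 556, and 1 between treatments without a genotype term. With 1 mouse left out, the calls were 909 (without S3) to 1998 under vehicle, 91 (without A) to 858 (without B) under evacetrapib, 0 to 1 (without S2) in the interaction and 0 to 8 (without S8) between treatments. Calls under vehicle were also fewer without S1 (1007) and S8 (1215), and under evacetrapib without C (223), E (335), F (206), G (300) and H (335). Between treatments 0 were left without B, D, E, F, H, S1, S3, S5 or S7, 1 without G and 4 without S4. Fits with fewer mice have fewer degrees of freedom, and otherwise the cause was not tested. Under all its alternatives, 0 pairs of a member and a marker list were related. The count table's header numbers mice 1 to 4 in each group, the labels do not, and mice with the same number did not deviate together (r -0.2 to 0.17 over 24 pairs, 3 of 16 mice closest to their own number). A replicate block on these numbers gave 3227, 1923, 555, 0 and 3 calls between genotypes over all mice, under vehicle, under evacetrapib, in the interaction and between treatments, and changed no call of a member between genotypes or in the interaction. Depth limits Atp2a1, with 1 to 31 counts, and Atp2c2, with 19 to 99.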
